A study of Drosophila melanogaster with 12 samples.

Results

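The Turandot genes of Drosophila melanogaster encode small secreted peptides of the humoral stress response. They were chosen by name from the family: TotA, TotB, TotC, TotF, TotM, TotX and TotZ. Of these 7 genes, 5 have a row among the 13040 genes of the joined tables, and TotF and TotZ were not analysed here. All 5 had counts in every library, as did 12982 genes, and all 5 passed the filter on low counts, which left 12809 genes for testing.

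Turandot peptides are made mainly in the fat body, the fly's counterpart of liver and adipose tissue, and are released into the hemolymph. Heat, oxidative stress, ultraviolet light, wounding and bacterial infection are known to raise their transcripts. Induction of TotA, the best studied member, is known to need the JAK/STAT pathway, in which cytokines of the unpaired family bind the receptor dome and activate the kinase hop and the transcription factor Stat92E, together with the Mekk1 kinase and, after infection, the Imd pathway factor Rel.

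RNA was measured by sequencing of polyA-selected libraries from whole adult flies aged 10 to 11 days, all in the Canton S background. There were 12 libraries in 4 groups of 3. The groups were wild-type flies with no obese parent (WT), AKHR +/- flies with no obese parent (Het), AKHR +/- flies with an obese paternal parent (Pat) and AKHR +/- flies with an obese maternal parent (Mat). AKHR is the receptor for adipokinetic hormone, which mobilises stored fat and sugar, and flies without it are known to become obese. The sources used here do not state the allele, the sex of the flies or the number of flies in a library. Het against WT compares genotypes without an obese parent. In Pat and Mat against WT the genotype and any effect of an obese parent come together, so the parent is read from Pat and Mat against Het, groups of 1 labelled genotype. Any difference in the parents' own genotype or in the direction of the cross would come together with the obese parent there. In whole flies, more cells that express a gene and more RNA per cell cannot be told apart.

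Library totals ranged from 17212029 to 21370713 reads, and a gene's level is given as read counts scaled to a fixed library total (CPM) and adjusted by the TMM factors of edgeR. AkhR, listed in the tables as GRHR, stood between 71.6 and 84.8 CPM in the 12 libraries, and its mean was 82.3 ± 4.33 in WT, 79.0 ± 6.59 in Het, 78.4 ± 4.08 in Pat and 79.8 ± 4.52 in Mat (SD, n = 3 each). It differed from WT by -0.06, -0.07 and -0.04 on the log2 scale in Het, Pat and Mat, with edgeR adjusted p of 0.804, 0.773 and 0.810, so its RNA level does not check the genotype labels. Maternal replicate 1 stood apart from the rest, with 6.084% of its counts in 88 ribosomal protein genes against 5.223 to 5.592% in the other 11 libraries. Where a library's number is given, it is the replicate number of its label. The series' design calls the replicates biologically and experimentally independent and says that each experimental replicate gave a set of samples, without saying whether the number in a label marks that set. The p-values then measure the spread between 3 such libraries a group.

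The 5 genes lie at 2 places in the genome, in the coordinates of the dm3 build that the tables give. TotA (FBgn0028396) runs from 16696758 to 16697427 on the plus strand of chromosome arm 3R. TotC (FBgn0044812) follows at 16698710 to 16699310 and TotB (FBgn0038838) at 16699672 to 16700259, both on the plus strand as well. Gaps of 1282 bases between TotA and TotC and of 361 bases between TotC and TotB separate these neighbours. TotX (FBgn0044810) lies further along the arm, at 16730638 to 16731240 on the minus strand, so that the 4 genes on 3R span 34.483 kb. TotM (FBgn0031701) is the only one of the 5 on another arm, at 5329857 to 5330464 on the plus strand of 2L.

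Other genes lie close to both places. TotX is inside the interval of CG5621, at 16727716 to 16733987 on the plus strand. The sources used here do not state the strand setting of the counting. How many reads of either gene were counted for the other is therefore not known. CG5621 had 562 to 721 reads in a library, fewer than the 840 to 1594 of TotX, so not all reads of TotX were counted for CG5621 as well. CG5621 differed from WT by -0.02, 0.04 and 0.02 (log2) in Het, Pat and Mat, with edgeR adjusted p of 0.956, 0.890 and 0.916. TotM ends 5 bases from fusl, a gene on the opposite strand with 1099 to 1459 reads. Within 5 kb of TotM also lie CG14022 (480 to 628 reads), cype (4219 to 5104 reads) and Ncoa6 (550 to 898 reads). CG3822 (94 to 148 reads) lies as near to TotA, and CG31191 (40 to 77 reads) to TotX. How reads that match several family members were counted is not given either. TotB had 9 to 21 reads in a library beside 6495 to 15580 in TotA and 2574 to 7746 in TotC, so its values are uncertain.

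TotA had the highest level of the family. Its mean deposited FPKM, a level per transcript length, over the 12 libraries was 883, rank 108 of 12982 genes. TotC, its neighbour, had 420 FPKM at rank 290. TotX followed with 99.5 FPKM at rank 1198. TotM, the member on 2L, had 68.4 FPKM at rank 1728, and TotB had 1.28 FPKM at rank 11798. The spreads over libraries of TotA, from 605 to 1524 FPKM, and of TotC, from 260 to 823 FPKM, overlapped. Those of TotX, from 70.4 to 130 FPKM, and of TotM, from 32.2 to 195 FPKM, did so as well, and TotB lay below all of them in every library.

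TotA, TotC, TotM and TotX varied between libraries of 1 group more than most genes did. The biological coefficient of variation (BCV), the spread between libraries beyond counting error, was 0.464 for TotM, higher than that of 99.8% of genes tested. TotC had a BCV of 0.305, above 99.6% of genes, and TotA one of 0.232, above 99.4%. TotX varied less, with a BCV of 0.120, above 96.8% of genes, and the median of all genes tested was 0.0541. TotB had a BCV of 0.104, above 94.7% of genes, beside a trend of 0.0870 for genes at its low level. The highest library stood at 6.08 times the lowest for TotM, 3.18 times for TotC, 2.54 times for TotA and 1.82 times for TotX, against 1.27 times for the median gene.

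TotX stood lower in WT than in each AKHR +/- group. Its level was 43.5, 46.2 and 42.9 CPM in WT replicates 1, 2 and 3, and 49.3, 65.8 and 67.3 CPM in Het replicates 1, 2 and 3. In the same order it was 55.2, 68.5 and 73.8 CPM in Pat and 78.0, 69.8 and 59.7 CPM in Mat. All 9 AKHR +/- libraries lay above all 3 WT libraries, while the Het, Pat and Mat libraries overlapped each other. The group means were 44.2 ± 1.78 CPM in WT, 60.8 ± 10.0 in Het, 65.8 ± 9.61 in Pat and 69.1 ± 9.17 in Mat (SD, n = 3 each), and the 840 to 860 reads in WT libraries covered a narrower range than those of Het, Pat or Mat.

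The difference of TotX from WT did not pass the threshold, an adjusted p under 0.05 over all 12809 genes, in edgeR's quasi-likelihood test. TotX was 0.46 higher in Het than in WT on the log2 scale, with an SE of 0.147, a 95% interval of 0.13 to 0.79 and an edgeR adjusted p of 0.277. In Pat it was 0.58 higher, with an SE of 0.146, an interval of 0.25 to 0.90 and an edgeR adjusted p of 0.183. In Mat it was 0.65 higher, with an SE of 0.146, an interval of 0.32 to 0.97 and an edgeR adjusted p of 0.134. The unadjusted edgeR p-values were 0.0108, 0.00291 and 0.00137, and these 3 comparisons share the WT libraries. Every library of the first group lay above every WT library for 9.76% of genes tested in Het, 9.34% in Pat and 7.22% in Mat. TotX is 1 of 5 Turandot genes with this order in each of the 3 comparisons.

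Other tests placed TotX on the other side of the threshold. DESeq2's Wald test on the same counts gave adjusted p of 0.0159 in Het, 0.000451 in Pat and 2.47e-05 in Mat against WT. It called 0.929%, 0.804% and 0.739% of the genes that it gave an adjusted p in these comparisons. No other Turandot gene passed it. The authors' deposited table gave TotX log2 ratios of 0.31, 0.41 and 0.45 with adjusted p of 0.000324, 1.23e-07 and 5.28e-08, on a score scale read here from a rerun of DESeq2. The deposited ratios against WT were smaller than edgeR's for the other members as well, such as 0.10 against 0.60 for TotA in Mat. The deposited ratios are therefore not compared in size with the edgeR estimates. In limma-trend the adjusted p were 0.288, 0.192 and 0.137, above the threshold as in edgeR. An edgeR fit of only the 6 Mat and WT libraries, which called 0.212% of genes, gave TotX an adjusted p of 0.00677, and the fit of 11 libraries without Het replicate 1, the lowest AKHR +/- library for TotX, gave 0.0347 in the same comparison. The values for Mat against WT without another single library ranged up to 0.378.

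The 3 AKHR +/- groups were also set together against WT, a comparison added after the values of TotX were seen. TotX had a mean of 65.3 ± 9.07 CPM over the 9 AKHR +/- libraries against 44.2 ± 1.78 over 3 WT libraries, a difference of 0.56 (log2, SE 0.123, 95% interval 0.29 to 0.84). Its edgeR adjusted p was 0.0605, in a comparison that called 1.49% of genes, and its limma-trend adjusted p was 0.0582. DESeq2 gave an adjusted p of 2.48e-06. It called 233 genes, or 3.82% of the 6104 that it gave an adjusted p, where edgeR called 191 of 12809. The edgeR adjusted p fell under the threshold without Het replicate 1, at 0.0108, and without Pat replicate 1, at 0.0254, with 139 and 119 genes called in these fits. It was 0.192, 0.219 and 0.206 without WT replicates 1, 2 and 3, which leaves 2 WT libraries, and between 0.0530 and 0.101 without each of the other 7 AKHR +/- libraries. For 3.1% of genes tested, all 9 AKHR +/- libraries lay above all WT libraries.

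Markers of male tissues moved with the same split of the libraries. The summed level of 11 male markers, which are dosage compensation RNAs and accessory gland genes, was 5214 to 5649 CPM in WT, 4521 to 4881 in Het, 4666 to 4738 in Pat and 4504 to 5007 in Mat. Of the 11, 1 fell in Het, 2 fell in Pat and 0 passed in Mat in edgeR, where 8 had an unadjusted p under 0.05. The all-gene shares called were 0.593%, 0.523% and 0.344%. DESeq2 called 5, 2 and 1 of the 11, and edgeR with the replicate number as a block called 4, 3 and 5. In all AKHR +/- against WT, 5 of the 11 fell in edgeR (roX1, Acp36DE, Acp62F, Mst57Db and Mst57Dc) and DESeq2 called 7. There edgeR called 191 of 12809 genes, or 1.49%. DESeq2 called 233, or 3.82% of the 6104 genes that it gave an adjusted p. Acp36DE, a seminal fluid protein, fell in Het and Pat, and Mst57Dc fell in Pat. None of the 11 was at 0 in any library. Female markers, which are yolk and eggshell genes, summed to 16.9 to 23.0 CPM over the 5 of 13 that had a row, and 0 of the 5 passed in the 6 comparisons in edgeR or DESeq2. The part of the male tissues in the values of TotX was not tested.

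**Figure D1:**
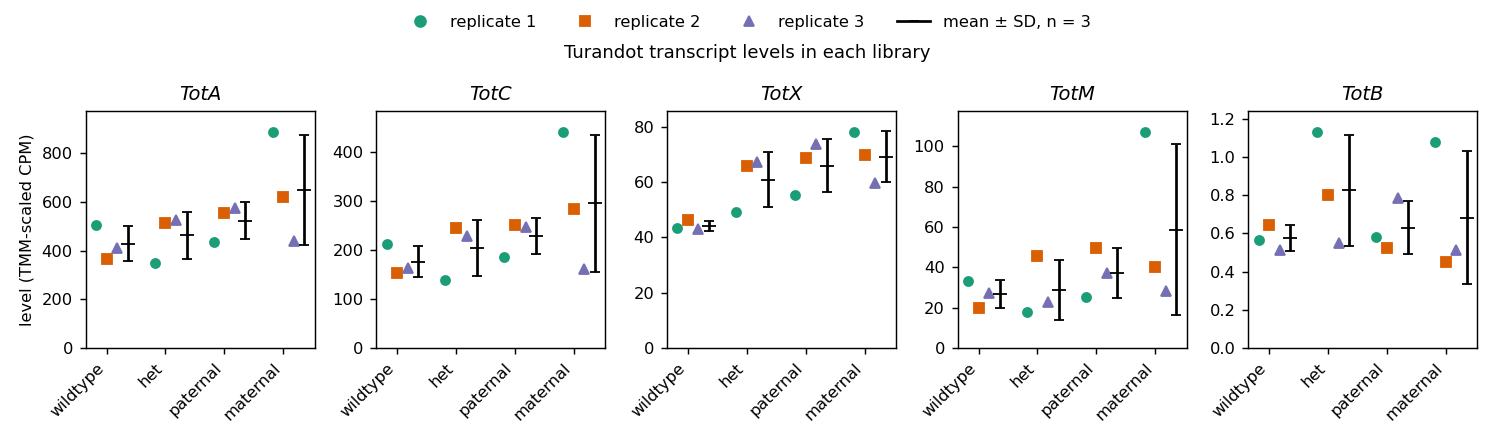
Level of the 5 measured Turandot genes in each library (TMM-scaled CPM, vertical axes from 0) for wildtype (WT), het, paternal and maternal flies; coloured symbols are replicate numbers, and bars are mean ± SD of 3 libraries. TotX lies at 42.9 to 46.2 CPM in wildtype and at 49.3 CPM or more in every AKHR +/- library, while the groups overlap for the other 4 genes.

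TotA, the member best known as a stress marker, overlapped between all groups. It stood at 507, 366 and 411 CPM in WT replicates 1, 2 and 3 and at 349, 512 and 525 CPM in Het. It was at 435, 556 and 575 CPM in Pat and at 887, 622 and 438 CPM in Mat. Maternal replicate 1 was the highest library and Het replicate 1 the lowest. The means were 428 ± 72.3 CPM in WT, 462 ± 97.9 in Het, 522 ± 76.0 in Pat and 649 ± 226 in Mat (SD, n = 3 each). Mat differed from WT by 0.60 (log2, SE 0.276), with an edgeR adjusted p of 0.425, and by 0.31 at the smallest when a single library was left out.

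TotC had its highest and lowest levels in the same libraries as TotA. It was at 213, 153 and 163 CPM in WT replicates 1, 2 and 3, at 138, 245 and 228 CPM in Het, at 186, 251 and 248 CPM in Pat and at 441, 284 and 161 CPM in Mat. The lowest maternal library lay below 2 of the 3 WT libraries, and maternal replicate 1 lay far above all others. Mat differed from WT by 0.74 (log2, SE 0.366), with an edgeR adjusted p of 0.449. Leaving out maternal replicate 1 gave 0.34 (edgeR adjusted p 0.833), and leaving out maternal replicate 3 gave 1.04 (edgeR adjusted p 0.130).

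TotM, a member that is known to respond to septic injury, had the largest spread. It was at 33.4, 19.7 and 27.1 CPM in WT replicates 1, 2 and 3, at 17.6, 45.5 and 22.6 CPM in Het, at 25.1, 49.5 and 37.1 CPM in Pat and at 107, 40.2 and 28.4 CPM in Mat. Maternal replicate 1 stood far above the other 11 libraries, and all groups overlapped. Mat differed from WT by 1.12 (log2, SE 0.568), with an edgeR adjusted p of 0.458, and by 0.36 without maternal replicate 1, with an edgeR adjusted p of 0.884.

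TotB was the least abundant of the 5, between 0.448 and 1.13 CPM in the 12 libraries. Its mean was 0.574 ± 0.0676 CPM in WT, 0.826 ± 0.292 in Het, 0.630 ± 0.138 in Pat and 0.681 ± 0.348 in Mat (SD, n = 3 each). Het differed from WT by 0.53 (log2), with a 95% interval of -0.23 to 1.29 and an edgeR adjusted p of 0.648. Without Het replicate 1 the difference was 0.25, and without Het replicate 3 it was 0.74.

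Over the family, none of the 5 tested genes passed edgeR's threshold in Het, Pat or Mat against WT, where 0.593%, 0.523% and 0.344% of all genes did. At an unadjusted edgeR p under 0.05 there was 1 gene of 5, TotX, in each of the 3, against 10.7%, 10.5% and 12.1% of all genes. All 5 estimates lay above 0 in each, with medians of 0.21 in Het, 0.37 in Pat and 0.65 in Mat (log2), while the median of all genes tested was -0.01 in each and 47.9%, 47.9% and 46.6% of them lay above 0. The 3 medians share their WT libraries, and all 5 genes were highest in replicate 1 among the Mat libraries. TotA, TotC, TotM and TotX also varied together from library to library, as given below, so the 5 genes are not 5 separate observations. Without maternal replicate 1 the Mat median was 0.34 and 4 of 5 genes lay above 0, with TotB at -0.26. When single libraries were left out, the medians ranged from 0.06 (without Het replicate 2) to 0.37 (without WT replicate 1) in Het, from 0.27 to 0.53 in Pat and from 0.34 to 0.82 in Mat, with 4 or 5 of 5 genes above 0.

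Groups of the same genotype with and without an obese parent gave no call for a Turandot gene. Pat against Het called 0.00781% of all genes, Mat against Het 0.0156% and Mat against Pat 0.0156%, and 0 Turandot genes passed in any of these in edgeR or in DESeq2, nor had any an unadjusted edgeR p under 0.05. The member medians were 0.16, 0.49 and 0.31 (log2), with 4, 4 and 5 of 5 genes above 0. Here too the 5 genes are not 5 separate observations. Without maternal replicate 1 the median was 0.13 in Mat against Het, and in Mat against Pat it was -0.03 with 1 of 5 genes above 0. Without Het replicate 1 the median in Pat against Het was -0.02, with 2 of 5 above 0. TotX differed by 0.12 in Pat against Het, with a 95% interval of -0.21 to 0.44, and by 0.18 in Mat against Het, with an interval of -0.14 to 0.51. TotM differed by 1.02 in Mat against Het, with an interval of -0.27 to 2.32, and by 0.26 without maternal replicate 1 and 1.54 without Het replicate 2. The intervals of TotA, from -0.14 to 1.12, and of TotC, from -0.30 to 1.37, in Mat against Het also held 0.

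**Figure D2:**
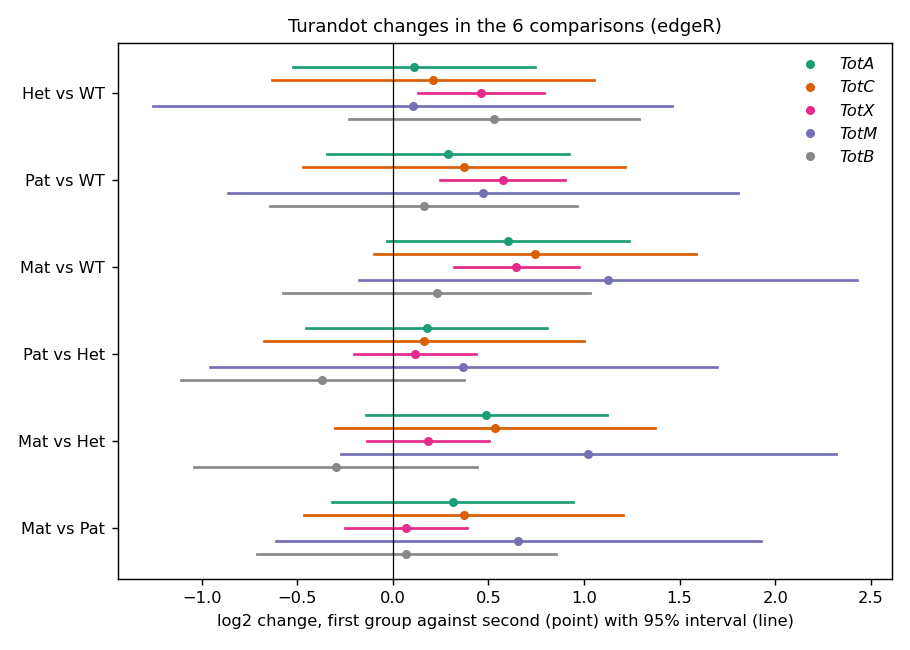
Difference of each Turandot gene in the 6 comparisons on the log2 scale (horizontal axis; points are edgeR estimates, lines 95% intervals, colours genes). The interval of TotX lies above 0 in the 3 comparisons with WT, at 0.13 to 0.79, 0.25 to 0.90 and 0.32 to 0.97, and every other interval holds 0.

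TotA, TotC, TotM and TotX, the 4 members with a mean of at least 1 CPM, varied together from library to library. No correlation was computed for TotB. Its highest library, Het replicate 1 at 1.13 CPM (21 reads), was the lowest for TotA, TotC and TotM. Its next highest, maternal replicate 1 at 1.08 CPM (19 reads), was the highest for TotA, TotC, TotM and TotX. Over the 12 libraries, the log2 CPM of TotA and TotC correlated with Pearson's r of 0.986 and Spearman's rho of 0.965 (permutation p 2e-05 for each, the smallest the permutations give, adjusted p 0.00012 over 6 pairs of genes). The ratio of TotA to TotC stayed between 2.01 and 2.71 in CPM. How reads that match both genes were counted is not given, and their part in these values was not tested. Without Het replicate 1 and maternal replicate 1, the libraries farthest from the median, r was 0.963. Within groups, after each group's mean was subtracted, r was 0.987, and within replicate numbers it was 0.993.

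TotM correlated with TotA at r of 0.911 and rho of 0.818 (permutation p 0.0004 and 0.00196, adjusted p 0.0008 and 0.00235), although it lies on another chromosome arm. Without the same 2 libraries r was 0.740, and within groups it was 0.873 and within replicate numbers 0.919. TotM and TotC correlated at r of 0.912 and rho of 0.867 (permutation p 0.0004 and 0.00066, adjusted p 0.0008 and 0.00132), with r of 0.751 without the 2 libraries, 0.889 within groups and 0.908 within replicate numbers. The ratio of TotA to TotM ranged from 8.29 in maternal replicate 1 to 23.2 in Het replicate 3, a wider range than for TotA to TotC.

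TotX was correlated with each of the other 3. Its correlation with TotA had r of 0.771 and rho of 0.881 (permutation p 0.00136 and 0.00034, adjusted p 0.00204 and 0.00102), with r of 0.746 without the 2 libraries, 0.819 within groups and 0.808 within replicate numbers. With TotC it had r of 0.772 and rho of 0.818 (permutation p 0.00182 and 0.00172, adjusted p 0.00218 and 0.00235), with r of 0.737 without the 2 libraries, 0.821 within groups and 0.815 within replicate numbers. With TotM it had r of 0.652 and rho of 0.650 (permutation p 0.0121 and 0.0252, adjusted p 0.0121 and 0.0252), with r of 0.526 without the 2 libraries, 0.678 within groups and 0.698 within replicate numbers. In the 3 WT libraries TotX spanned 42.9 to 46.2 CPM while TotA spanned 366 to 507 CPM.

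**Figure D3:**
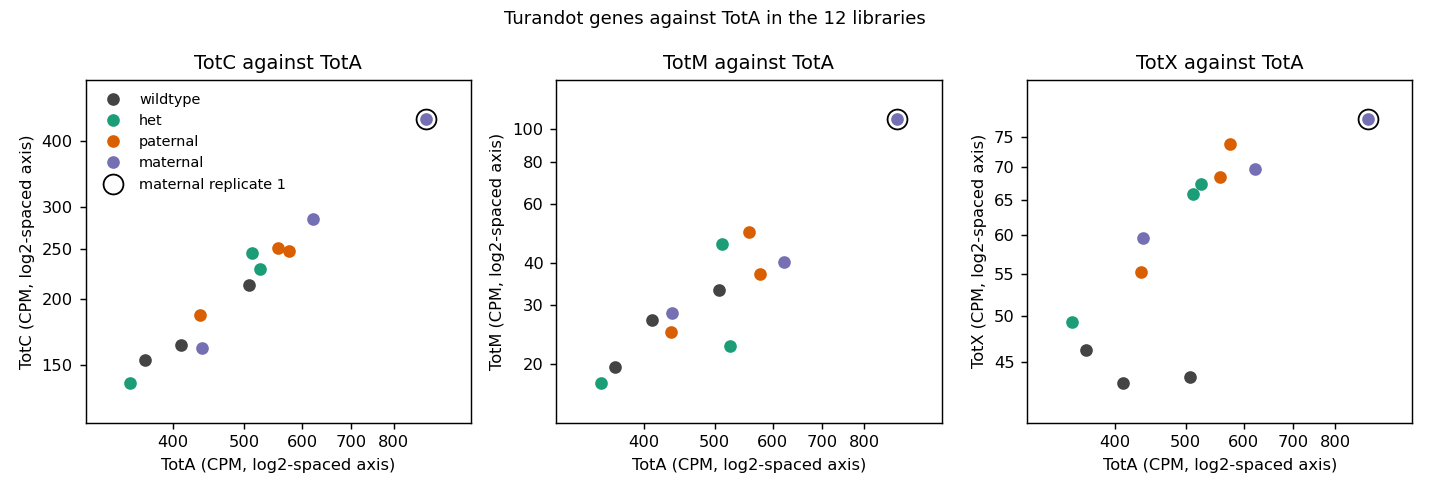
TotC, TotM and TotX against TotA in the 12 libraries (CPM, log2-spaced axes; colours are groups, and the ring marks maternal replicate 1). TotC follows TotA along a line at a ratio of 2.01 to 2.71, TotM scatters more, and the 3 wildtype points of TotX lie at 42.9 to 46.2 CPM, below all others.

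The genes whose pattern was most like that of the family were named by Pearson's r over the 12 libraries between their log2 CPM and the mean z-score of TotA, TotC, TotM and TotX. Of 12804 genes, CG11298 was most alike, with r of 0.921, levels of 23.8 to 32.0 CPM and r of 0.847 without the 2 libraries farthest in the z-score. CG13168 followed with r of 0.860, CG4459 with 0.848 and CG11808 with 0.843. The noncoding genes CR43484 and CR43608 had r of 0.839 and 0.832. All 6 were highest in maternal replicate 1, the library in which TotA, TotC, TotM and TotX were highest. Without the 2 libraries farthest in the z-score, r was 0.873 for CG4459, above that of CG11298, 0.738 for CR43484, 0.660 for CR43608, 0.626 for CG13168 and 0.556 for CG11808.

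No Turandot gene was called between replicate numbers. The means over the 4 libraries numbered 1, 2 and 3 were 545, 514 and 487 CPM for TotA and 56.5, 62.6 and 60.9 CPM for TotX. An edgeR test of the replicate numbers with group in the model called 4.3% of all genes and 0 Turandot genes, with adjusted p of 0.969 for TotA, 0.920 for TotC, 0.818 for TotM and 0.748 for TotX. None had an unadjusted edgeR p under 0.05, where 20.3% of all genes did. None passed in limma-trend or in DESeq2, which called 7.39% of the 6849 genes that it gave an adjusted p. A count of 0 in 5 is near the background and says nothing particular of the family.

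Genes of the JAK/STAT pathway, which the induction of TotA is known to need, gave no call between groups. The cytokine upd3 was barely detected, at 0.232 to 0.697 CPM in the 12 libraries. The receptor dome stood at 41.8 ± 3.43 CPM in WT, 42.5 ± 1.20 in Het, 44.5 ± 1.51 in Pat and 42.8 ± 2.41 in Mat (SD, n = 3 each). The kinase hop ranged from 25.6 to 35.5 CPM in the 12 libraries, and the transcription factor Stat92E from 221 to 280 CPM. Socs36E, a target of the pathway that feeds back to inhibit it, had 19.8 ± 1.26 CPM in WT and 17.7 ± 2.39 in Mat, a difference of -0.16 (log2, SE 0.103, edgeR adjusted p 0.531). None of the 12 tested genes of this list passed in any of the 6 comparisons, which called at most 0.593% of all genes in edgeR, so a count of 0 in 12 is near the background.

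The other lists of stress genes gave the same count in the comparisons between groups. They were 12 stress MAP kinase genes, 10 Imd pathway genes, 7 other humoral stress genes linked to JAK/STAT, 8 heat shock genes and 13 antimicrobial peptide genes. With the JAK/STAT list this made 62 tested genes, of which 0 passed in each of the 6 comparisons in edgeR and 0 in DESeq2. In edgeR these comparisons called 0.593%, 0.523% and 0.344% of all genes against WT and 0.0156% or less between the AKHR +/- groups, so a count of 0 in 62 is near the background and says nothing particular of these lists. At an unadjusted edgeR p under 0.05 there were 4 of 62, or 6.45%, in each comparison with WT, against 10.7%, 10.5% and 12.1% of all genes in Het, Pat and Mat. There was 1 in Pat against Het, 2 in Mat against Het and 0 in Mat against Pat, where 2.11%, 4.15% and 2.75% of all genes had such a p. Between replicate numbers 2 of the 62 passed in edgeR, or 3.23%, where 4.3% of all genes did. In DESeq2 6 of the 62 passed, or 9.68%. It called 506 genes there, which is 7.39% of the 6849 that it gave an adjusted p, out of 12809 fitted. The 62 were not restricted to genes with such a p, so the 9.68% and 7.39% are not on the same base. The 2 in edgeR were Hsp22, a mitochondrial small heat shock protein, at 69.9 ± 2.37, 75.1 ± 2.38 and 63.5 ± 3.18 CPM in numbers 1, 2 and 3 (SD, n = 4 each, edgeR adjusted p 0.00425), and TepIV, a thioester-containing protein, at 728 ± 30.5, 739 ± 28.7 and 806 ± 38.7 CPM (edgeR adjusted p 0.0197).

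Antimicrobial peptide genes, which the fat body also makes after infection, followed another order of libraries. Their summed level over 14 genes was 297 CPM in maternal replicate 1, where the summed Turandot level was 1514 CPM. It was highest in WT replicate 3, at 660 CPM, where the summed Turandot level was 645 CPM. Het replicate 3 was next at 527 CPM, and the lowest was Pat replicate 3 at 144 CPM. Summed Turandot levels were 585 to 797 CPM in WT, 556 to 869 in Het, 703 to 935 in Pat and 688 to 1514 in Mat. Fat body markers summed to 3287 to 3817 CPM in WT, 3195 to 3474 in Het, 3182 to 3366 in Pat and 3192 to 3550 in Mat, over the 5 of 6 with a row. Hemocyte markers, for blood cells, summed to 459 to 504, 462 to 515, 458 to 497 and 443 to 512 CPM over 7 of 7 genes. The groups overlapped for both lists, and 0 of their genes passed in the 6 comparisons in edgeR or DESeq2. Between replicate numbers, 3 of 4 tested fat body markers (Lsp2, fit and to) and 2 of 7 hemocyte markers (Hml and Pxn) passed in edgeR, where 4.3% of all genes did.

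**Figure D4:**
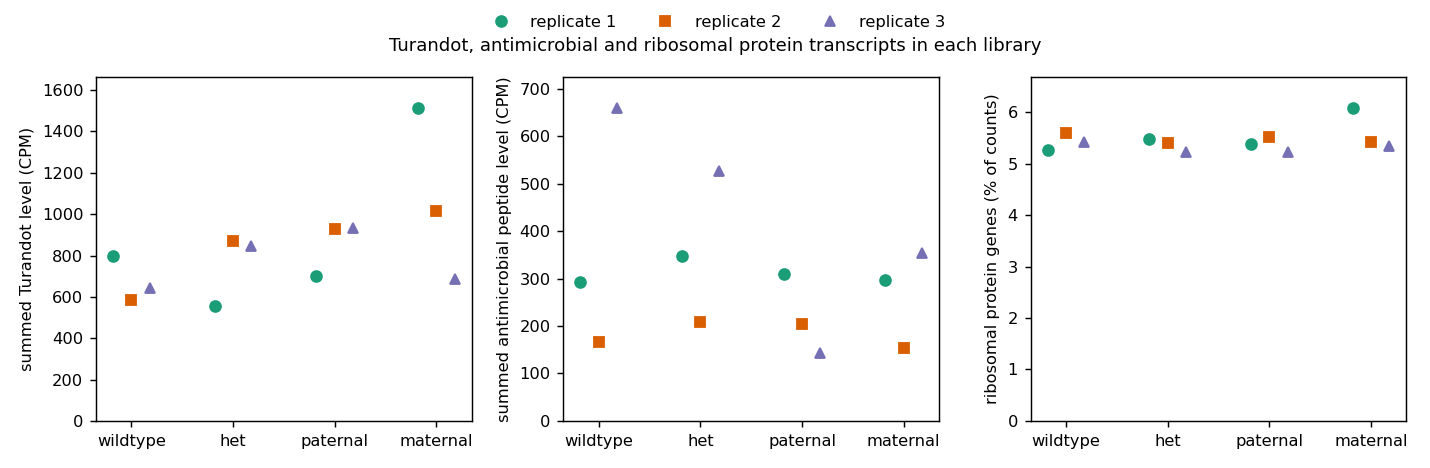
Summed CPM of the 5 Turandot genes, summed CPM of 14 antimicrobial peptide genes and percent of counts in 88 ribosomal protein genes for each library (vertical axes from 0; symbols are replicate numbers). Maternal replicate 1 is highest for the Turandot sum, at 1514 CPM, and for the ribosomal protein share, at 6.084%, and WT replicate 3 is highest for the antimicrobial peptides, at 660 CPM.

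The ribosomal protein share of maternal replicate 1 went with its high Turandot level, and its part in that level was not tested. Among the other 11 libraries the share was highest in WT replicate 2, at 5.592%, where the summed Turandot level was 585 CPM. It was next highest in Pat replicate 2, at 5.514%, where the summed Turandot level was 926 CPM. Without maternal replicate 1, TotA and TotC still correlated at r of 0.973, TotA and TotM at 0.812 and TotA and TotX at 0.742.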

How the data were processed

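Per the file headers, the 5 deposited tables hold read counts per gene, FPKM, log2 ratios and adjusted p-values written as a score, with coordinates on D_melanogaster_Apr_2006 (dm3). The submitters' processing notes name Novoalign and DESeq. The sources used here state no versions, annotation, strand setting or treatment of reads that match several genes. Counts of a library were identical between tables (0 disagreements). Joining gave 13040 genes, and 58 without counts in every library were left out. The score was read as minus 10 times log10 of adjusted p, since a DESeq2 rerun gave a median ratio of 0.999 in Het vs WT without independent filtering and of 1 in Pat vs WT and 0.961 in Mat vs WT with it. In Het vs WT the ratio was 0.502 with that filtering. The deposited log2 ratios were used only as the authors' values, and 30 per-sample columns of transformed values were not used.

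Counts were tested with edgeR 4.0.16 (R 4.3.3): filterByExpr (minimum count 10, minimum total 15), TMM, a robust quasi-likelihood fit of all 12 libraries, and Benjamini-Hochberg adjustment over 12809 genes at 0.05. The common BCV was 0.0591. The script was tested on simulated data. DESeq2 1.42.0, limma-trend 3.58.1 (prior count 2), other scalings, no filter, the replicate block, 6-library fits and leaving out each library were alternatives. Correlations used 100000 permutations. By rule, the text names all members, list genes past the threshold (up to 4 per list and comparison), 5 JAK/STAT genes, the 6 genes most alike, neighbours within 5 kb and AkhR. Members and lists were chosen with earlier results of these data known.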

Additional observations from a re-analysis of the deposited data

Results flagged for a closer look

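The 9 AKHR +/- libraries pool 3 labelled groups of 1 genotype. Among them 2 Turandot genes had a single library far from the rest by Dixon's test on CPM without logs. Chance meets this check in about 1 of 20 sets of normally distributed values, which CPM values need not be. TotC and TotM varied together, so these are not 2 separate flags. TotC was at 440.9 CPM in maternal replicate 1, and the next library was at 284.1 CPM, a gap of 0.519 of the whole range. TotM was at 107 CPM in the same library, and the next was at 49.5 CPM, a gap of 0.643 of the range. On the log2 scale, against the WT mean, the highest, next and lowest libraries stood at 1.34, 0.70 and -0.33 for TotC. They stood at 2.03, 0.92 and -0.57 for TotM. Both gaps are a smaller share of the range there, and the check was not run on that scale. Groups of 3 are too small for this check, so the maternal libraries alone were not tested.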

How the results depend on the processing

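The count of Turandot genes past the threshold, 0 throughout in the main test, became 1 (TotX) with DESeq2 in Het, Pat and Mat against WT and in all AKHR +/- against WT, and 1 with the 6 libraries of Mat against WT. Leaving out 1 library gave 0 to 1 in Mat against WT and 0 to 1 in all AKHR +/- against WT. Other counts of Turandot genes, between replicate numbers included, stayed at 0. Of the 62 genes of the pathway lists, 1 passed in Het against WT with 6 libraries (Listericin) and 0 to 1 without a single library. In all AKHR +/- against WT, 2 passed with the replicate block (Hsp27 and TepIV) and 0 to 1 without a single library. Group levels as a share of a gene's own mean moved by less than 1 SD with deposited FPKM in place of CPM.

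Counts over all genes were 76, 67 and 44 in Het, Pat and Mat against WT and 191 in all AKHR +/- against WT. They were 284, 206, 227 and 695 with the replicate block, 119, 103, 91 and 233 with DESeq2, and 183, 156 and 27 with 6 libraries. Without a single library they ranged from 41 to 170, 33 to 154, 27 to 116 and 63 to 360. The cause was not tested. With the replicate block TotX had edgeR adjusted p of 0.249, 0.156, 0.108 and 0.0665, and no Turandot call changed. Deviations from the group mean correlated at a mean r of 0.119 between same-numbered libraries (18 pairs, -0.0273 to 0.221, 11 above 0.1). This hints that the number marks a shared set. Between differently numbered libraries the mean r was -0.0592 (36 pairs, 1 above 0.1). Subtracting the group means ties the second mean to the first, so it adds no separate hint. Since 7 of the 18 pairs were at or under 0.1 and no label ties the number to a set, the block was kept as an alternative. With 9 to 21 reads, depth limits TotB, and the spread between libraries limits TotA, TotC and TotM.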
